A study of Mus musculus
Mus spretus with 18 samples.

Results

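Alleles of C57BL/6J and SPRET/EiJ were compared for exon inclusion and for the balance of their transcripts in the lung of F1 hybrid mice. The lung table lists 28138 skipped exon (SE) events, each made of an alternative exon and its neighbouring exons, of which 27443 lie on autosomes. An event was kept if each allele was covered by 20 or more junction reads in both libraries. This left 22047 events, covering 19783 exons of 7821 genes, out of 66347 events that passed the same limit in any of the 7 tissues of the series.

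C57BL/6J belongs to the house mouse and is kept as an inbred laboratory strain. SPRET/EiJ is inbred too but belongs to M. spretus, a related species. The 2 lung libraries came from separate female offspring of a C57BL/6J mother and a SPRET/EiJ father, untreated and aged 8 weeks. Every cell of these animals carries both genomes, so the 2 alleles of a nucleus meet the same splicing factors at the same time. The RNA was that of a whole organ, and the cells that gave the reads of each allele were not told apart. The other tissues used here, each with 2 libraries, were spleen, kidney, heart, liver and cerebral cortex from such hybrids, and hybrid embryonic stem cells (ESC). The liver labels spell the maternal strain differently from the others.

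An exon is spliced into the mature mRNA when the spliceosome recognizes the splice sites at both of its ends, and it is skipped when the splice sites of its neighbours are joined instead. Sequences within the exon and its flanking introns act in cis and belong to 1 allele, whereas splicing factors act in trans and reach both. In a hybrid, a difference between the alleles of one nucleus is therefore read as a difference in cis. Lung is built from alveolar and airway epithelium, a dense bed of capillaries, smooth muscle, matrix and many resident leukocytes, and all of them contribute to the RNA of a whole organ.

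Inclusion is given as percent spliced in (PSI), the length-corrected share of reads that include the exon, on a scale from 0 to 1. The PSI difference is the value on the C57BL/6J allele minus that on the SPRET/EiJ allele, as the mean of the 2 libraries. Allelic junction reads summed to 21262691 and 18635969 on the C57BL/6J allele and to 20359782 and 18022816 on the SPRET/EiJ allele in replicates 1 and 2. The C57BL/6J share of autosomal reads was 51.1% in replicate 1 and 51.2% in replicate 2. The median event had 243 reads per allele and library. All 8 epithelial markers, among them the surfactant gene Sftpc and the club cell gene Scgb1a1, were higher in both lung libraries than in any library of the other tissues. The 5 markers of cardiac muscle were also present, with a summed expression of 1665 and 1305 TPM, the length-corrected abundance of a gene's transcripts, in lung against 55621 and 55669 TPM in heart.

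The imprinted genes gave a check of the allele labels. Transcripts of Meg3, a noncoding RNA made from the maternal chromosome, had 2429 and 2061 reads on the C57BL/6J allele and 5 and 2 on the SPRET/EiJ allele. Sgce, which is expressed from the paternal chromosome, had 6 and 23 reads on the C57BL/6J allele against 10211 and 8141 on the other. Both lie on the side that the cross predicts for a C57BL/6J mother.

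Most exons were included alike on the alleles. The median absolute PSI difference was 0.0116 over all 22047 events. PSI of the same allele in the other library differed by a median of 0.00922 for C57BL/6J and 0.00897 for SPRET/EiJ. A quasi-binomial model of inclusion against skipping reads, with dispersions moderated by limma, called 651 events in 514 genes divergent (2.95% of those tested) at an adjusted p under 0.05 and a PSI difference of at least 0.1. Inclusion was higher on the C57BL/6J allele in 359 of them (1.63%) and on the SPRET/EiJ allele in 292 (1.32%), so that 55.1% of the called events favoured C57BL/6J. When library entered the fit as a replicate block, the number was 744 (3.37%), and all 651 were among them. It was 406 with the dispersion prior that was tried first. Under the first prior, 9 named exons missed the threshold, those of Tnnt3, Sftpb, Cd44, Cald1, Lmo7, Osbpl3, Itgax, Esrp1 and Sf1, with adjusted p-values from 0.0509 to 0.223 by the limma-moderated fit.

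The PSI values of the alleles did not overlap between the libraries in 646 of the 651 called events, where 30.3% of all events had alleles that did not overlap. The 5 exceptions included events of Anks3, Impdh2, Pisd-ps1 and Sftpb, which were named after their values were seen. Across all events, the PSI differences of the replicates correlated with r = 0.656 (n = 22047 events, which share reads where exons neighbour each other). The median absolute PSI difference of the called events was 0.236. It was at least 0.5 in 89 events, between 0.2 and 0.5 in 293 and below 0.2 in 269. At the limit, the Dctn5 event was called with a difference of 0.101 and the Adck4 event was not with -0.0991.

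**Figure D1:**
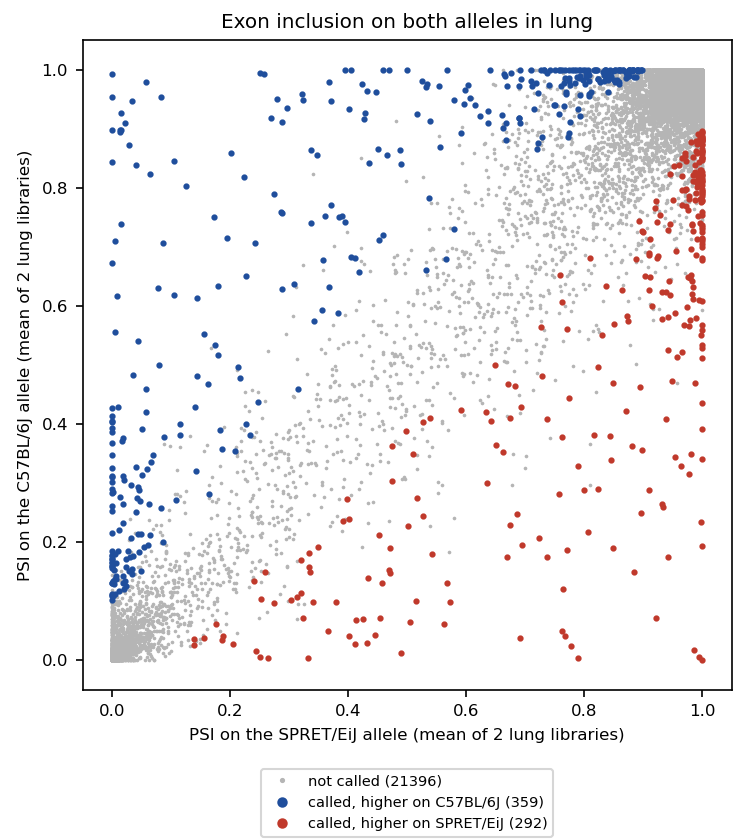
PSI of each of the 22047 lung events on the SPRET/EiJ allele (horizontal axis) and on the C57BL/6J allele (vertical axis), each the mean of 2 libraries, with grey points for events not called, blue for the 359 called with higher inclusion on C57BL/6J and red for the 292 called with higher inclusion on SPRET/EiJ. Most grey points lie in the corners near 0 and 1, and a few coloured points reach the upper left and lower right corners, where one allele includes the exon and the other skips it.

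Divergence was called more often where the PSI averaged over both alleles was intermediate. This mean is taken from the same values as the difference, so a large difference by itself places an event in the middle class. A mean near either end of the scale leaves room for small differences only. Of 2485 events with a mean PSI between 0.1 and 0.9, 489 were called (19.7%), against 121 of 18100 (0.669%) above 0.9. Below 0.1, 41 of 1462 events were called (2.80%), and 38 of these had more inclusion on the C57BL/6J allele. In that class 62.9% of all events leaned toward C57BL/6J, and the SPRET/EiJ allele showed no inclusion read at all in 16 of the 41. The events are those of an annotation made on C57BL/6J, and its part in this lean was not tested.

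The major form changed between alleles in 147 called events of 128 genes, with the PSI of both libraries above 0.5 on one allele and below 0.5 on the other. In 10 events of 9 genes the exchange was nearly complete, with PSI above 0.9 on one allele and under 0.1 on the other in both libraries. These genes included Cdc26, Mff, Mrps17, Pkp4, Serpina3f, Tcrg-C4, Tor1aip1 and Zscan21. The length of the alternative exon was a multiple of 3, which keeps the reading frame of a coding exon, in 292 of the called events (3.14% of 9291), and was not in 359 (2.81% of 12756). In genes called for allelic imbalance of their transcripts, 94 of 1595 events were called (5.89%), against 557 of 20452 (2.72%) in the others. The imbalance of a gene and the PSI of its events come from the same junction reads, so these calls are not independent.

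The 24 exons with the largest differences present in both replicates, 12 in each direction, had between 20 and 1265 reads per allele and library. Their adjusted p-values lay between 2.38e-21 and 5.78e-05. The exons were between 45 and 232 bp long, and 11 of them had a length that is a multiple of 3. In all 24, both libraries of one allele lay above both of the other, which differences of this size in both replicates entail. Exon positions are given on mm10. Each PSI is that of 1 event, the one of its gene with the largest difference held in both replicates. The exons of Mff (3 events), Fblim1 and Mcfd2 (2 events each) were also measured with other flanking exons. Those other events are not described here and may differ less.

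Exons of adhesion and cytoskeletal genes were among the most divergent. In Pkp4, a plakophilin of cell junctions, the exon on chromosome 2 from 59305066 to 59305197 had a PSI of 0.987 and 1 on the C57BL/6J allele and of 0 and 0 on the SPRET/EiJ allele. Its PSI difference was 0.994 ± 0.00886 (SD, n = 2; adjusted p = 2.09e-20, limma-moderated). The SPRET/EiJ transcripts thus lacked this exon in each of 279 and 238 reads.

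Sync, which encodes a muscle intermediate filament protein, had an exon with a PSI of 0.804 and 0.886 on C57BL/6J and of 0.075 and 0.133 on SPRET/EiJ. Lung held less RNA of this gene than heart, with 5.6 and 4.88 TPM against 30.4 and 29.6 TPM. The part of the cardiac muscle RNA in the lung values was not tested.

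Further exons of this group lay in Fblim1, Nrcam and Cobll1. In Fblim1, whose product links filamin to adhesion sites, PSI was 0.222 and 0.167 on C57BL/6J and 1 and 1 on SPRET/EiJ, from as few as 22 reads. In Nrcam, a cell adhesion molecule of the immunoglobulin family, PSI was 0.895 and 1 on C57BL/6J against 0.0169 and 0.0492 on SPRET/EiJ. In Cobll1, a relative of an actin nucleator, it was 0.827 and 0.821 against 0.0847 and 0.045. The alleles of each of the 3 exons stood far apart in both libraries, as follows from their selection by differences in both replicates.

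Genes of host defence formed another part of the 24. Apobec3 encodes a cytidine deaminase that restricts retroviruses, and its exon on chromosome 15 from 79899020 to 79899118 had a PSI of 0.00136 and 0.00518 on the C57BL/6J allele and of 0.77 and 0.807 on the SPRET/EiJ allele (difference -0.786 ± 0.0236, SD, n = 2; adjusted p = 6.59e-20, limma-moderated). Almost no C57BL/6J transcript held the exon, and most SPRET/EiJ transcripts did. Ackr2, a scavenger receptor for chemokines, had an exon on chromosome 9 from 121906354 to 121906582 with a PSI of 1 and 0.986 on C57BL/6J and of 0.249 and 0.266 on SPRET/EiJ.

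The C-type lectin receptors Clec7a, which binds fungal glucans, and Cd209c, of the DC-SIGN family, both had an exon favoured on the SPRET/EiJ allele. For Clec7a, PSI was 0.181 and 0.168 on C57BL/6J against 0.882 and 1 on SPRET/EiJ. For Cd209c it was 0.146 and 0.155 against 0.843 and 0.926. Serpina3f, a serine protease inhibitor, had a PSI of 0.939 and 0.968 against 0 and 0. Tcrg-C4, a constant segment of the T cell receptor gamma locus, had a PSI of 0 and 0 against 1 and 1, on 20 to 24 reads. Cd209c, Serpina3f and Tcrg-C4 have close paralogs, and how reads were split between copies is uncertain.

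Among genes of the nucleus and the mitochondria, Tor1aip1 had a nearly complete exchange. It encodes a protein of the inner nuclear membrane, and its exon on chromosome 1 from 156019968 to 156020023 had a PSI of 0.00258 and 0.00766 on the C57BL/6J allele and of 0.994 and 0.995 on the SPRET/EiJ allele, from 303 to 833 reads. The difference was -0.989 ± 0.00337 (SD, n = 2; adjusted p = 2.38e-21, limma-moderated). Cdc26, a subunit of the anaphase-promoting complex, had an exon included at 0.97 and 0.938 on C57BL/6J and at 0.078 and 0.0888 on SPRET/EiJ. Mrps17, a protein of the mitochondrial ribosome, had PSI values of 0.928 and 0.928 against 0.013 and 0.018.

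Mff is a receptor of the mitochondrial fission machinery, and its exon was included at 0.0653 and 0.0794 on C57BL/6J and at 0.923 and 0.921 on SPRET/EiJ. Syncrip, itself an RNA-binding protein of the hnRNP class, had PSI values of 0.037 and 0.0123 against 0.757 and 0.797. The zinc finger gene Zscan21 had 0.96 and 1 against 0.0414 and 0.0737. Both Mff and Syncrip belong to the exons whose allelic reads and all reads gave unlike PSI, described further on.

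The remaining exons lay in genes of the secretory pathway, of metabolism or of less known function. Fut8 adds the core fucose to N-glycans, and its exon had a PSI of 0.865 and 0.814 on C57BL/6J and of 0.0357 and 0.0464 on SPRET/EiJ. In Mcfd2, which works in the export of secretory cargo from the endoplasmic reticulum, PSI was 0.279 and 0.191 against 0.995 and 1. Hyi, hydroxypyruvate isomerase, had 0.0382 and 0.0625 against 0.791 and 0.734. The exons of Tmem80 and 4930523C07Rik were favoured on C57BL/6J, with mean PSI differences of 0.898 and 0.844, and that of Gpank1 on SPRET/EiJ, with -0.726.

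**Figure D2:**
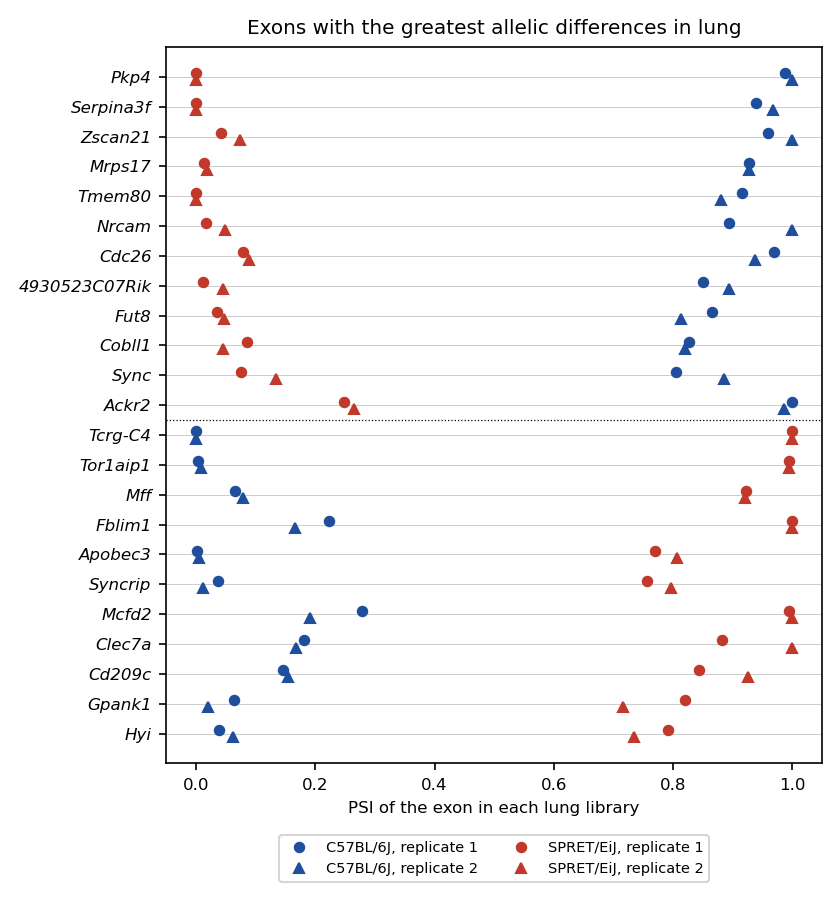
PSI (horizontal axis) of 23 of the 24 exons with the greatest allelic differences, 1 gene per row, in each lung library, with blue for C57BL/6J, red for SPRET/EiJ, circles for replicate 1 and triangles for replicate 2. The 12 exons above the dotted line are included more on C57BL/6J and the 11 below it on SPRET/EiJ. In no row do the colours overlap, which follows from the choice of exons.

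Allelic reads are only those that cover a sequence difference, so the PSI of both alleles together was set against the PSI of all reads. In 579 of the 651 called events they differed by at most 0.1 in both libraries, and in 72 by more. Of the 24 exons 6 were in the second class. For Tmem80 and Mff the greater of the 2 library differences was 0.325 and 0.228, for Syncrip 0.236, for Cobll1 0.172, for Cd209c 0.131 and for Mcfd2 0.106. For these 6 the reads that could be given to an allele did not give the inclusion of all reads of the event.

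Of the exons of 30 bp or less, called micro-exons here, 12 had a called event. Map4k4, a kinase of the stress pathways, had a micro-exon of 9 bp with a PSI of 0.652 and 0.651 on C57BL/6J and of 0.216 and 0.238 on SPRET/EiJ. In Art3, which encodes an ADP-ribosyltransferase family member, the 30 bp exon had 0.367 and 0.313 against 0.795 and 0.896. Tnnt3, the fast skeletal muscle form of troponin T, had a 14 bp exon at 0.925 and 1 against 0.292 and 0.601, the widest spread between libraries of the 3. Of 397 micro-exon events 13 were called (3.27%), close to the 2.95% of all events.

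Events were called in 1 gene of the epithelial lists. Among 15 measured genes of the alveolar epithelium, 2 of 70 events were called (2.86%, beside 2.95% of all events), both in Sftpb, and among 11 of the airway epithelium 0 of 41, also with the replicate block. Their median absolute PSI differences were 0.00208 and 0.00135, below the 0.0116 of all events. Every other gene list except the epithelial splicing targets was below 0.0116 too, so this is not particular to epithelium. The median of all events also depended on depth, at 0.00907 with a minimum of 50 reads. The larger of the Sftpb calls, at the exon on chromosome 6 from 72310635 to 72310795 of this surfactant protein gene, rests on replicate 1: PSI on C57BL/6J was 0.103 there and 1 in replicate 2, against 0.996 and 0.998 on SPRET/EiJ. The other events of this exon, with other flanking exons, had PSI of at least 0.951 on both alleles in both libraries. The second call, at an exon from 72309826 to 72309940, had 0.821 and 0.888 against 1 and 0.941. Genes of xenobiotic and redox metabolism had 0 calls in 61 events, also with the replicate block, with a median of 0.00178, and splicing factors 2 in 161 (1.24%).

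Endothelial and matrix genes held calls with close replicates. In Pecam1, the endothelial adhesion molecule, the 57 bp exon on chromosome 11 from 106671742 to 106671798 had a PSI of 0.579 and 0.561 on C57BL/6J and of 0.858 and 0.843 on SPRET/EiJ, from 2337 to 5456 reads (difference -0.28 ± 0.00224, SD, n = 2; adjusted p = 1.58e-12, limma-moderated). All 4 calls among the 118 endothelial events (3.39%) lay in this gene, 3 with higher inclusion on SPRET/EiJ. Of 125 events of matrix genes and their receptors, 8 were called (6.40%, beside 2.95% of all events), 6 of them with higher inclusion on C57BL/6J. This share was not tested.

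Postn, a matricellular protein, had an exon with 8802 to 15146 reads. This exon on chromosome 3 from 54385208 to 54385285 had a PSI of 0.922 and 0.923 on C57BL/6J and of 0.659 and 0.66 on SPRET/EiJ. In Tnc, which encodes tenascin C, PSI was 0.942 and 0.884 against 0.525 and 0.553. In Cd44, the hyaluronan receptor, a variable exon was included at 0.529 and 0.646 on C57BL/6J and at 1 and 0.906 on SPRET/EiJ. The other genes of this list with a call were Col13a1 and Ddr1.

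Smooth muscle and cytoskeletal genes had 3 calls in 113 events (2.65%), all with higher inclusion on C57BL/6J. Sptan1, a spectrin of the membrane skeleton, had a 15 bp exon at 0.622 and 0.653 on C57BL/6J and at 0.298 and 0.319 on SPRET/EiJ. Cald1, which encodes caldesmon, had a mean difference of 0.149, with allelic and all reads 0.176 apart, and Lmo7 one of 0.114. Known targets of epithelial splicing factors had 6 calls in 102 events (5.88%, beside 2.95% of all events, not tested). Their median absolute difference of 0.0255 was above that of all events. Beside Cd44 the calls lay in Osbpl3, Ctnnd1 and Numb. The exon of Numb, the Notch regulator, had 0.613 and 0.565 against 0.407 and 0.358, with allelic and all reads 0.118 apart.

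Leukocyte genes had 4 calls in 45 events (8.89%, beside 2.95% of all events). The calls lay in 3 genes, all with higher inclusion on C57BL/6J. No list was tested against the share of all events. The lysosomal glycoprotein gene Cd68, a macrophage marker, had a PSI of 0.907 and 0.88 against 0.621 and 0.561, with allelic and all reads 0.114 apart. Itgax, the integrin CD11c, had 1 and 1 against 0.827 and 0.843, and H2-D1, an MHC class I heavy chain, 0.997 and 0.995 against 0.794 and 0.819. The H2-D1 event had 18920 and 19435 reads on C57BL/6J against 1552 and 1741 on SPRET/EiJ. This gene has close paralogs, and how reads were split between copies is uncertain. Antiviral and interferon genes had 3 calls in 72 events (4.17%), in 2 genes and all with higher inclusion on SPRET/EiJ. In Gbp3, a guanylate-binding protein, PSI was 0.0758 and 0.0473 against 0.615 and 0.508, and in Irf9, a subunit of the interferon-stimulated transcription factor, it was 0.139 and 0.168 against 0.43 and 0.508. The RNA of 27 of the 28 genes of the antiviral list was higher in replicate 2, as was that of 55.5% of 16166 genes. The median log2 ratio was 0.62 against 0.02 over the 16166 genes. In the leukocyte list 23 of 25 genes were higher in replicate 2, with a median log2 ratio of 0.32. The part of these shifts in the PSI values was not tested.

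The 2 calls among splicing factors were weak. In Esrp1, an epithelial splicing regulator, PSI was 0.378 and 0.2 on C57BL/6J and 0.00813 and 0.0827 on SPRET/EiJ. In Sf1, the branch point binding protein, it was 0.0769 and 0.148 against 0.00847 and 0, with all reads giving a PSI as much as 0.31 away from that of the alleles.

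Allelic balance was then measured as the C57BL/6J share of all junction reads summed over the SE events of a gene, for 8386 autosomal genes with at least 40 reads in each library. A junction read shared by several events was counted in each of them. The read numbers of genes, also in the read limits, can thus exceed the reads sequenced. The median share was 50.7%, and 6290 genes lay between 40% and 60%. The share correlated with r = 0.869 between the replicates, across genes. With the autosomal share of each library as reference, 983 genes (11.7%) had a called imbalance of at least 2 to 1. The C57BL/6J allele was higher in 550 (6.56%) and the SPRET/EiJ allele in 433 (5.16%), and both replicates lay on the same side of 50% in 980 of them. Of 6877 genes with at least 200 reads, 25 had a share of 95% or more and 33 of 5% or less in both libraries.

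**Figure D3:**
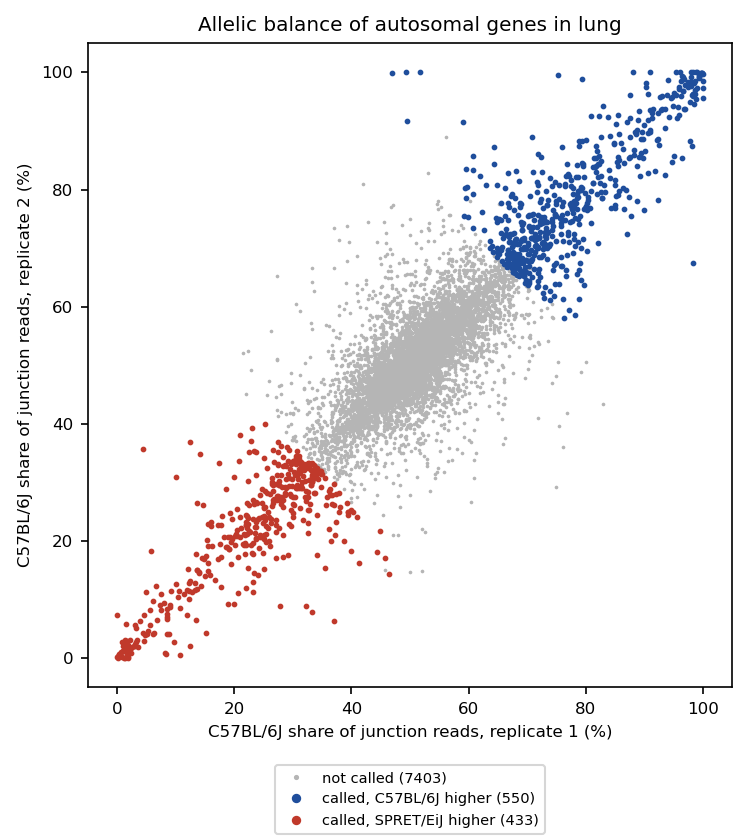
C57BL/6J share of the junction reads of each of the 8386 autosomal genes in lung, in percent, in replicate 1 (horizontal axis) and replicate 2 (vertical axis), with grey points for genes not called, blue for the 550 called toward C57BL/6J and red for the 433 called toward SPRET/EiJ. The grey cloud centres near 50%, and small groups of genes lie at both ends near 0% and 100% in both libraries.

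Imprinted genes took 2 of the 10 highest places, Meg3 and Rian, and 2 of the 10 lowest, Snrpn and Sgce. Of 5 measured genes known to be expressed from the maternal chromosome all 5 were called toward C57BL/6J, and of 4 known to be expressed from the paternal chromosome 3 were called toward SPRET/EiJ. Igf2r, the receptor that clears insulin-like growth factor, had shares of 96.8% and 98.8%, and Snrpn, a spliceosomal protein gene, of 0.105% and 0%. Inpp5f lay at 52.9% and 53.5%.

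Apart from these, the highest shares were those of Chi3l3, which encodes a chitinase-like protein of alveolar macrophages, with 14991 and 17243 reads on C57BL/6J against 6 and 4 on SPRET/EiJ, and of Gm4956 with 2627 and 3013 against 5 and 2. Spp1, the cytokine and matrix protein osteopontin, had 1179 and 1455 reads against 3 and 1. Next came Gm20748, the plasma protein gene Itih4 at 99.4% and 99.4%, the receptor for vasoactive intestinal peptide Vipr2 at 99.4% and 99.2%, the MHC class I gene H2-T22 at 98.6% and 98.5% and the small GTPase gene Rhog at 98.6% and 98.1%. The shares of Rhog were between 95.6% and 99.3% in all 6 other tissues, whereas Itih4 had 39.0% in liver.

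The lowest shares included H2-Ea-ps, the MHC class II E alpha gene, with 4 and 6 reads on C57BL/6J against 3144 and 3440 on SPRET/EiJ. C57BL/6 mice are known to lack transcripts of this gene. The others were Hnrnpa3, Rpl28, Rpl13, Rpl17, Eif3j1, Kansl2 and Ppia, with shares of at most 1.12% in either library. Ppia, the cyclophilin A gene, had 711 and 758 reads against 77315 and 66831. Ribosomal protein genes, Ppia and Hnrnpa3 have many near-identical processed copies in the genome, and Chi3l3, H2-T22 and the other MHC genes have close paralogs. The shares of these genes are uncertain, because reads from one allele may have been assigned to a copy.

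Of all genes 11.7% were called for balance, 6.56% toward C57BL/6J, and the lists were not tested against this. In the alveolar list 3 of 16 genes were called, all toward C57BL/6J: Sftpa1, a surfactant protein, at 67.6% and 69.3%, Lamp3 of the lamellar bodies at 68.2% and 68.7%, and Cav1, the caveolar scaffold protein, at 87.5% and 96.1% on few reads. The median share of the list was 56.9%, against 50.7% of all genes. In the airway list 2 of 11 were called, the secretoglobin gene Scgb3a1 at 85% and 76.9% and the club cell monooxygenase gene Cyp2f2 at 69% and 69.9%.

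Xenobiotic and redox genes had 5 calls among 18 genes, 4 of them toward C57BL/6J. Cyp2b10, a monooxygenase induced by foreign compounds, had 80.7% and 76.9%, and Ephx2, soluble epoxide hydrolase, 70.6% and 73%. Gstt2, a glutathione transferase, had 21% and 20.6%. In the endothelial list 1 of 18 genes was called, the sialomucin gene Emcn at 69.4% and 71.7%. Its share was 65.8% in liver, 64.1% in spleen, 54.6% in kidney, 52.9% in heart and 50.2% in cortex.

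In the matrix list Cd44 had 22% and 22.7% over 32 events, and Itga1, a collagen-binding integrin, 73.1% and 74.6%. Tnc, with a divergent exon too, had 70.8% and 65%, the latter under the limit of 2 to 1. Leukocyte genes had 5 calls among 20, all toward C57BL/6J, with Marco, a macrophage scavenger receptor, at 93.5% and 82.5%, and H2-K1 at 78.5% and 78.5%. H2-D1 had 75% and 75.5% over its 3 events but 49.97% at its deepest event alone.

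The antiviral genes Ifi44 and Mx1 leaned in opposite directions. Ifi44 had 345 and 1340 reads on C57BL/6J against 7 and 31 on SPRET/EiJ, and Mx1, an inhibitor of influenza viruses, 100 and 271 against 466 and 1981. The reads of both genes were more numerous in replicate 2, and the shares of 98% and 97.7% for Ifi44 and of 17.7% and 12% for Mx1 held in both libraries. Among 40 splicing factors 3 were called: Hnrnpc at 89% and 91.9%, U2af1 of the U2 auxiliary factor at 73.7% and 70.3%, and Hnrnpa1 at 30.7% and 29%, the last a gene with many processed copies.

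Whether an allelic difference was particular to lung was tested with the interaction of allele and tissue. The fit did not pair the tissues by animal. Spleen, which is rich in leukocytes, had 21726 events of its own and shared 12550 with lung, and kidney, like lung an organ with much epithelium, had 24802 and shared 13113. Against spleen the limma-moderated fit called 0 events (0%). At an unadjusted p under 0.05 there were 373 events, or 2.97%, and 3 were called with the replicate block, 1 in Dst and 2 in Tpm1. In Dst, which links cytoskeletal filaments, PSI differences were 0.0114 and -0.0122 in lung and 0.3 and 0.287 in spleen. In the exon of Tpm1 with the smaller adjusted p, a tropomyosin, they were 0.0507 and 0.0389 against 0.146 and 0.234.

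Against kidney 5 events were called (0.0381%), with 460 at an unadjusted p under 0.05 and 12 with the replicate block. In Tbxas1, thromboxane synthase, the exon on chromosome 6 from 39083693 to 39083855 had PSI differences of -0.225 and -0.192 in lung and of 0.368 and 0.358 in kidney (adjusted p = 9.2e-05, limma-moderated). The favoured allele was thus SPRET/EiJ in lung and C57BL/6J in kidney. Xpnpep1, an aminopeptidase, had differences of 0.121 and 0.0821 in lung and of 0.419 and 0.372 in kidney.

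Fcgr2b, the inhibitory receptor for IgG, had -0.0515 and -0.188 in lung against -0.352 and -0.46 in kidney. Rab11fip3, an effector of recycling endosomes, had 0.144 and 0.12 against -0.0435 and -0.0403. Ndufv3, a subunit of respiratory complex I, had -0.14 and -0.175 against -0.0272 and -0.0296. The adjusted p of these 3 and of Xpnpep1 was 0.0351 by the same fit. Xpnpep1 and Rab11fip3 had allelic and all reads 0.146 and 0.139 apart in lung. With 1 of the 4 libraries left out at a time, 0 to 3 events were called, and 0 without kidney replicate 2. In bulk tissue a different makeup of cells and a different splicing within a cell cannot be told apart.

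**Figure D4:**
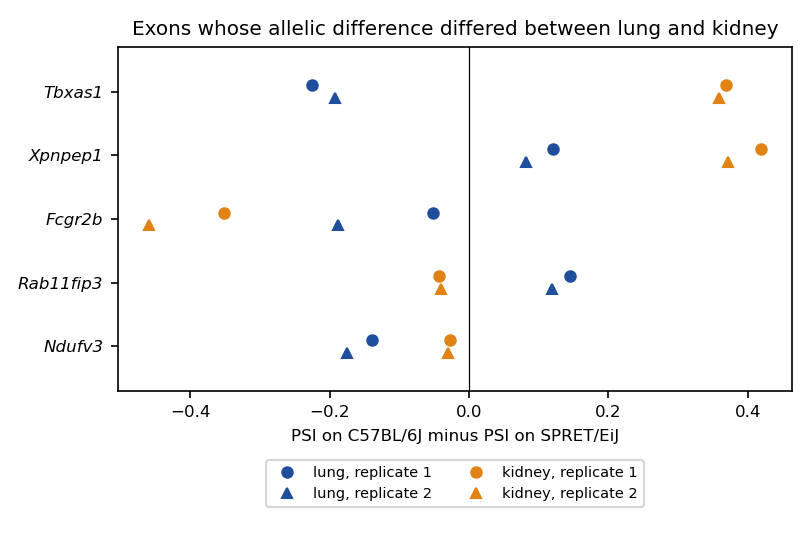
PSI on C57BL/6J minus PSI on SPRET/EiJ (horizontal axis) for the 5 exons whose allelic difference was called different between the tissues, 1 gene per row, with blue for lung, orange for kidney, circles for replicate 1 and triangles for replicate 2. Tbxas1 lies at -0.225 and -0.192 in lung and at 0.368 and 0.358 in kidney, Rab11fip3 lies above 0 in lung and below 0 in kidney, and the other 3 genes differ in size.

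The model compares odds, and large PSI differences did not always give a small p. The Art3 micro-exon differed by -0.506 between alleles in lung and by 0.0135 in spleen and -0.00697 in kidney, where it was hardly included on either allele, with an adjusted p of 1 for both by the limma-moderated fit. For Mff the differences were -0.849 in lung and -0.272 in kidney (unadjusted p = 0.0188, adjusted p = 1, limma-moderated). These 2 exons are therefore not shown to differ between tissues.

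In the libraries of other tissues, which did not enter the lung calls, most called events kept their direction. By the paper's account the other organs, liver included, came from the same animals as the lung. Agreement among organs is thus not agreement between separate animals. Of 509 called events measured in spleen 496 had the same sign there (97.4%), and of 515 in kidney 506 (98.3%), against 68.9% and 70% of all shared events. The size was at least 0.1 in the same direction in 372 (73.1%) and 362 (70.3%) of them. In heart, liver, cortex and ESC the share with the same direction and at least 0.1 was 68.7%, 61.7%, 61.8% and 63.8%. Of 269 called events measured in all 6 tissues, 93 held a difference of at least 0.1 in the same direction in every one.

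For the 24 exons, 79 values from other tissues were available for 22 of them. Of these, 78 had the direction of lung with a size of at least 0.1, and 73 a size of at least 0.5. Pkp4 had differences from 0.899 to 0.984 in the other tissues and Tor1aip1 from -0.988 to -0.952. Fblim1 was the exception, with -0.806 in lung and -0.00455 in heart, a difference that was not tested. Mff had -0.91 in heart but -0.186 in cortex, and Cobll1 0.341 in spleen but 0.811 in heart. The part of the cardiac muscle RNA in the lung values of these exons was not tested.

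**Figure D5:**
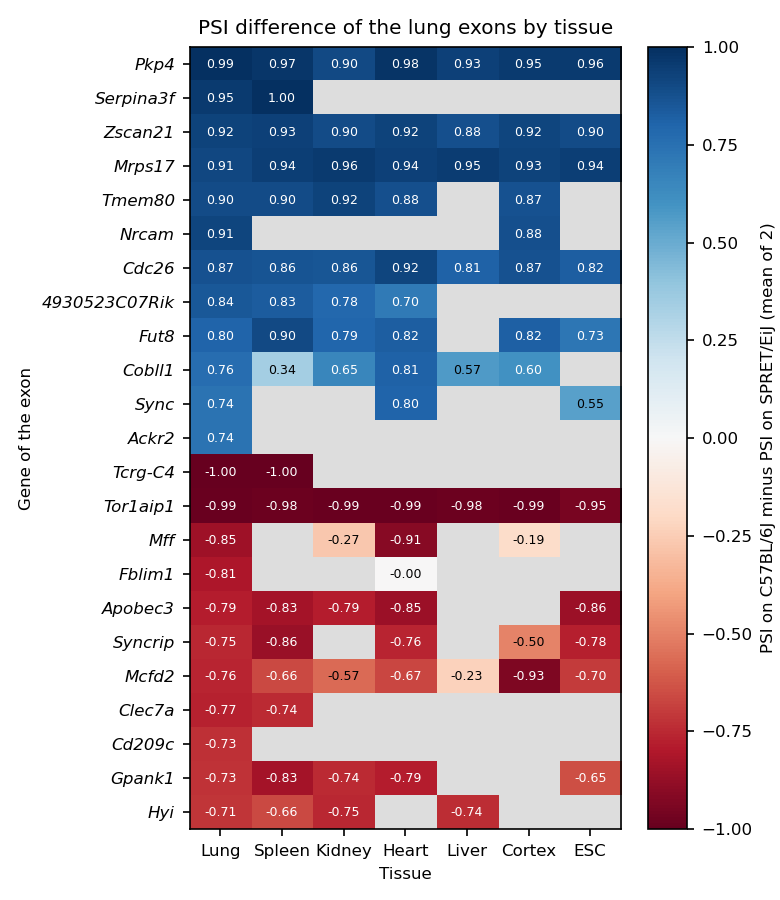
PSI on C57BL/6J minus PSI on SPRET/EiJ, mean of 2 libraries, of 23 of the 24 exons (rows, by gene) in lung and in the 6 other tissues (columns), from -1 in red to 1 in blue, with grey where an allele had fewer than 20 reads in a library. Rows such as Pkp4, Zscan21, Mrps17 and Tor1aip1 keep 1 colour across all 7 tissues, and Fblim1 has no difference in heart.

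A further 55 called events of 41 genes had too few reads for this comparison in every other tissue. Those with the largest differences, listed after their values were seen, included Ackr2 and Cd209c and the interferon-stimulated gene Xaf1, whose exon had a PSI of 0.314 and 0.215 on C57BL/6J against 0.889 and 0.975 on SPRET/EiJ, with allelic and all reads 0.198 apart. Among them were also Cdhr3, a cadherin of ciliated airway cells, at 0.973 and 0.981 against 0.469 and 0.376, and Ttc29, a protein of motile cilia, at 0.976 and 0.976 against 0.542 and 0.526.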

How the data were processed

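Allelic and all-read SE tables of polyadenylated RNA were used. The authors had aligned reads to both parental genomes with HISAT2 2.0.1 and counted inclusion and skipping junction reads with rMATS; the deposited counts per event and library come with the effective lengths of both forms. The authors also deposited TPM values per gene, used here for markers and levels only. The p-value, FDR and inclusion columns of the authors' own comparison were not used. Kidney reads were longer than those of lung before the authors trimmed them.

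Autosomal events with 20 or more reads per allele and library entered a quasi-binomial model of inclusion against skipping reads. The effective lengths entered the PSI values and their differences, not the model. Dispersions were moderated with limma 3.58.1 (R 4.3.3), p-values were adjusted by Benjamini and Hochberg over all events, and a call needed an adjusted p under 0.05 and a PSI difference of at least 0.1. The prior of the dispersions was taken from events with a fitted binomial variance of at least 1. It replaced a first form, from events with at least 10 reads of each form, after the counts of calls under both had been seen. The same model was used for the share of C57BL/6J reads per gene (limits of 2 to 1 and at least 40 reads per library) and, on the odds scale, for the interaction of allele and tissue. Scripts used numpy 2.4.6, pandas 2.3.3, scipy 1.17.1 and matplotlib 3.10.9 under Python 3.11.15, and were tested on simulated data.

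Both alleles of a replicate come from 1 library, which pairs them. Their replicate deviations correlated with r = 0.125 over 22047 events. For the lung events, the p-values rest mainly on a dispersion prior drawn from many events, with 32.7 prior degrees of freedom. The spread of the event itself between the 2 libraries counts for less. Counted reads are not independent molecules. The exons named are those with the largest smaller difference of the 2 replicates, 12 in each direction and 1 per gene. Named by balance are the 10 called genes with the highest and the 10 with the lowest share among those with at least 200 reads. Called micro-exons, called members of 12 gene lists (up to 3 each) and up to 5 events per tissue comparison were named too. For a list member, the called event of the gene with the largest difference is given. Some of these exons were in several measured events, with other flanking exons. They were those of Pecam1 (5), Sftpb, Tnc and Cald1 (3 each), and Cd44, Lmo7 and Esrp1 (2 each). The comparison, the members and the lists were chosen with earlier results of these data known. Gene names are those of the deposited tables, and the build is mm10. Counts cover all events, and 2 genes among those the rule or a count would name are not reported here.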

Additional observations from a re-analysis of the deposited data

Results flagged for a closer look

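The allelic difference was called different between lung and kidney, by the interaction of allele and tissue, at 5 exons. The PSI difference in lung minus that in kidney was -0.572 for Tbxas1, -0.294 for Xpnpep1, 0.286 for Fcgr2b, 0.174 for Rab11fip3 and -0.129 for Ndufv3. Tbxas1 and Rab11fip3 favoured opposite alleles in the tissues, and the other 3 favoured the same allele in both. Fcgr2b had unlike lung replicates, at -0.0515 and -0.188.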

How the results depend on the processing

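The number of divergent events was 651 and fell to 382 at a PSI difference of at least 0.2 and to 406 with the first form of the dispersion prior. The form used for the 651 replaced it after both counts had been seen. Leaving out a replicate gave 342 to 351. The other alternatives, among them a minimum of 50 reads and a logit fit in limma, gave counts within 1.5 times of it. Over all these settings 52.9% to 57.05% of calls favoured C57BL/6J, the highest in the logit fit. The replicate block, with both alleles of a library paired, gave 744 events in lung, 3 against spleen and 12 against kidney.
Against kidney, leaving out a library gave 0 to 3 events: 1 without lung replicate 1, 3 without lung replicate 2, 2 without kidney replicate 1 and 0 without kidney replicate 2. Against spleen every such fit gave 0. Imbalanced genes numbered 983, with 612 at a minimum of 200 reads, 646 from events with at least 20 reads on each allele and 1899 with limits of 60% and 40%. The median absolute PSI difference was 0.00907 at a minimum of 50 reads, and 0.00938 to 0.0124 with a replicate left out. The Sftpb difference of -0.445 became 0.00172 without replicate 1 and -0.893 without replicate 2; in replicate 1 lay all 269 skipping reads of the C57BL/6J allele. The H2-D1 share of 75.3% became 49.97% at the deepest event alone. With a replicate left out, named values were set against the size limits only, without a test. Lmo7 (0.0881 without replicate 1) and Sf1 (0.0684 without replicate 2) fell under the PSI limit, and the shares of Tnc (64.99%) and Tpm3 (65.26%) without replicate 1 under that of balance. Under the first prior 9 of 44 named exons missed the threshold, and 35 passed it. The replicate block changed the call of none of the 44. The cause of the other changes was not tested.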

Other observations

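On the X chromosome, left out above, the C57BL/6J share of junction reads in lung was 49.7% in replicate 1 (556234 reads) and 25.7% in replicate 2 (501204 reads). Elsewhere the share ranged from 38.0% (heart) to 53.5% (cortex).

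Interferon-stimulated genes were higher in the lung library of replicate 2, which has no replicate of its own. Oas2, a sensor of double-stranded RNA, had 1.64 TPM in replicate 1 and 10.6 TPM in replicate 2, Irf7, a regulator of interferon genes, had 16.8 and 74.4 TPM, and Ifit1 had 14.9 and 43.6 TPM. The receptor genes Ifnar1 and Ifnar2 differed by log2 ratios of 0.03 and 0.06.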
